A study of Homo sapiens with 6 samples.

Results

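The 56 genes described here encode the kinases, checkpoint proteins, kinetochore subunits, motors and spindle factors that carry a cell through mitosis, and they were chosen by name from that biology. Of these, 55 had a row among the 16953 genes of the authors' deposited table, and KIF15 was not analysed here. RNA came from 6 samples of H1048, an established human line from a small cell lung cancer, of the tuft cell-like type marked by POU2F3, and labelled as wild type. Cells received ISP-I (isovalerylspiramycin I, a component of a macrolide antibiotic) at 10 µM in 3 samples, or its solvent DMSO in the other 3, for 48 h. The 3 samples of each group are biological replicates per the series' design text.

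The authors' deposited table compares libraries D, E and F with libraries A, B and C and gives each gene a log2 fold change and an adjusted p. No label ties a letter to ISP-I or to DMSO, so every difference below is that of libraries D to F over A to C, with no treatment assigned. For the same reason values per library, levels, totals and standard errors are not given, and all fold changes and p-values below are the authors' own. Genes with an adjusted p under 0.05 are called higher or lower. All 6 tuft cell markers had a row: POU2F3, AVIL and SOX9 were lower (log2 fold changes -1.71, -2.31 and -1.25), GFI1B was higher (0.54), and ASCL2 (0.33) and TRPM5 (0.78) were not called. The epithelial genes EPCAM (0.55), KRT8 (1.24) and KRT18 (1.12) were higher and CDH1, the E-cadherin gene (-1.34), was lower. Of the neuroendocrine markers, SYP (2.51) and INSM1 (1.81) were higher. Of 9 markers of fibroblasts, leukocytes and endothelium 7 had a row and none was higher, while the fibroblast genes COL1A1 (-0.57) and PDGFRB (-1.86) were lower. Their part in the results was not tested.

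Cells enter mitosis when cyclin B and CDK1 are switched on by CDC25 phosphatases, and Aurora and Polo-like kinases then build the spindle. Kinetochores couple chromosomes to microtubules, and the spindle checkpoint holds back the anaphase-promoting complex, a ubiquitin ligase, until every chromosome is attached. Most of these genes are transcribed late in the cell cycle, from promoters read by NF-Y, B-MYB, FOXM1 and the MuvB core. In RNA from a mixed culture, fewer cells in mitosis and less RNA of a gene per cell cannot be told apart.

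The mitotic genes did not move as a block. By the authors' deposited table, 18 of the 55 (32.7%) were higher and 18 (32.7%) were lower in libraries D to F, beside 29.7% higher and 27.9% lower among the 15976 genes with an adjusted p. In either direction 36 (65.5%) were called, beside 57.6% of all tested genes. The median log2 fold change was -0.08 over the mitotic genes and 0.05 over all tested genes.

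The differences were small in size. No mitotic gene was at least 2-fold higher (the highest was NDC80 at 0.86, so the count is also 0 at an unadjusted p under 0.05), where 12.8% of tested genes were at least 2-fold higher and called. The 4 genes at least 2-fold lower were SPC24, PRC1, INCENP and ESPL1, where 11.3% of tested genes were. The median absolute log2 fold change was 0.34 for the mitotic genes and 0.67 for all tested genes, and among called genes alone it was 0.54 and 0.86. An absolute log2 fold change under 0.5 was listed for 36 mitotic genes (65.5%) and for 39.4% of tested genes. Expression levels were not used, so these sizes are not matched on abundance.

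**Figure D1:**
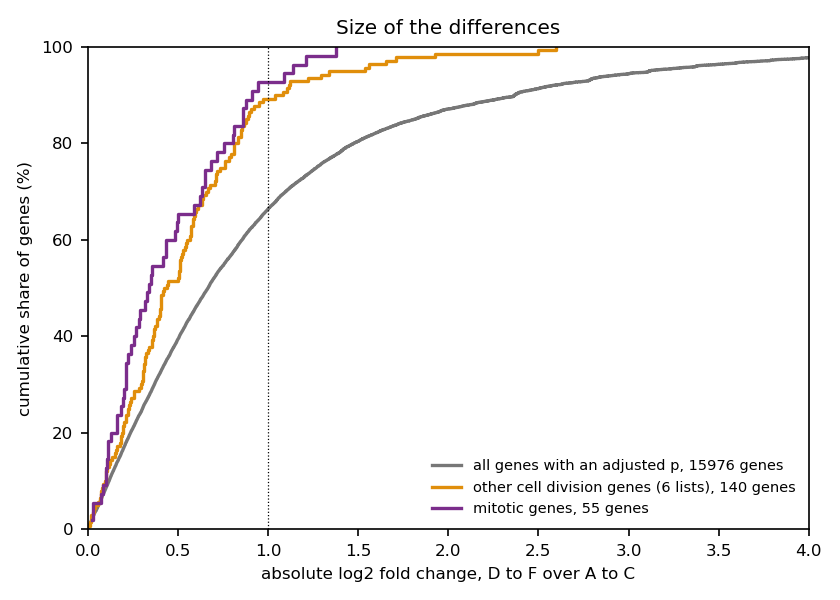
Cumulative share of genes (y axis, %) against the absolute log2 fold change of libraries D to F over A to C (x axis, drawn to 4), for the 55 mitotic genes, 140 other cell division genes from 6 lists and the 15976 genes with an adjusted p. The line at 1 marks 2-fold; 4 mitotic genes (7.27%) lie beyond it, against 33.6% of the tested genes.

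By adjusted p the lower genes were led by SPC24, a subunit of the NDC80 complex (chromosome 19, 11131520 to 11155808; 2.60-fold lower, adjusted p = 3.03e-29 in the authors' deposited table). INCENP, the scaffold of the chromosomal passenger complex (chromosome 11, 62123973 to 62153163), was 2.20-fold lower (adjusted p = 2.00e-24). ESPL1, which encodes separase, the protease that cuts cohesin at anaphase (chromosome 12, 53268299 to 53293643), was 2.13-fold lower (adjusted p = 1.71e-20). These remain moderate beside the whole table, since SPC24 ranked 1046 by fold among the 4453 genes called lower.

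The higher genes were led by HMMR, a spindle and centrosome protein that is also a hyaluronan receptor (chromosome 5, 163460203 to 163491945; 1.75-fold higher, adjusted p = 3.18e-16 in the authors' deposited table). CDC20, the activator through which the checkpoint controls the anaphase-promoting complex (chromosome 1, 43358955 to 43363203), was 1.57-fold higher (adjusted p = 4.67e-13). RACGAP1, a subunit of centralspindlin, was 1.54-fold higher (adjusted p = 1.53e-12). NDC80, with the largest fold of the higher genes, ranked 2421 among 4742 genes called higher. Coordinates of genes are those of GENCODE 29 on GRCh38.

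The promoters of these leading genes are shown because late cell cycle genes share short elements there, and the question is whether genes on opposite sides differ in them. Each line gives the 150 bases before the gene's start from RefSeq on GRCh38.p14, 5′ to 3′ on the gene's strand. Except for ESPL1, RefSeq's starts differ from the outermost GENCODE starts given above, so the stretch of HMMR lies within its GENCODE span, and those of INCENP, CDC20 and SPC24 run into theirs. Capitals mark the NF-Y box (CCAAT or its reverse complement ATTGG) and the cell cycle genes homology region, or CHR, to which MuvB binds (here TTTGAA, its reverse complement, or TTCGAA). SPC24 (minus strand, chr19:11155783-11155932), INCENP (plus strand, chr11:62123861-62124010) and ESPL1 (plus strand, chr12:53268149-53268298) were lower, and HMMR (plus strand, chr5:163460482-163460631) and CDC20 (plus strand, chr1:43358831-43358980) were higher.
SPC24: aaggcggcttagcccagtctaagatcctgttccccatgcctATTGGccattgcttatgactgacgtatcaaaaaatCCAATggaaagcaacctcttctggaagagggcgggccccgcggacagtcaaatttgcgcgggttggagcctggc
INCENP: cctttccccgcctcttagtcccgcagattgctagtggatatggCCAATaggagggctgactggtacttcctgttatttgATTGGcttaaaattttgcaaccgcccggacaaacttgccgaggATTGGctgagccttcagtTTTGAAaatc
ESPL1: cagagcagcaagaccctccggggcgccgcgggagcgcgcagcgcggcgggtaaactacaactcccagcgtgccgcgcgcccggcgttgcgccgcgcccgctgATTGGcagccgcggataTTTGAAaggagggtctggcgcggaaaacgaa
HMMR: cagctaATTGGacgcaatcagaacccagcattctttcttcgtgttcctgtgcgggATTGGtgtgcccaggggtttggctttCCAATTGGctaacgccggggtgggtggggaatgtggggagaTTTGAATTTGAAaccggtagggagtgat
CDC20: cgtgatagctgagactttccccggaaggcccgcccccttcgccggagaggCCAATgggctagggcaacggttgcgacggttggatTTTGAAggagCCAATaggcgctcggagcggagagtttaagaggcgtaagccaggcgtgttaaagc

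In these stretches INCENP, ESPL1, HMMR and CDC20 hold a CHR match together with NF-Y boxes. The CHR match begins at -10 in INCENP, -31 in ESPL1, -28 and -22 in HMMR and -65 in CDC20, counted back from the gene's start. SPC24 holds NF-Y boxes at -109 and -74 and no CHR match in these letters. In HMMR a pair of NF-Y matches, at -69 and -66, overlap in CCAATTGG.

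Across the 45 mitotic genes with a value and a RefSeq promoter, the same elements were found on every side of the comparison. In windows of 250 bases before to 50 after the start, 33 of 45 (73.3%) held a CHR match, and 37 (82.2%) held an NF-Y box. Among the 12963 genes of the table with such a window the shares were 12.3% and 36.1%. A window was available for 11 of the 18 higher genes, 17 of the 18 lower genes and 17 of the 19 genes not called. The higher genes are thus the least covered. A CHR match was present in 9 of 11 higher genes, 12 of 17 lower genes and 12 of 17 genes not called. An NF-Y box was present in 9 of 11, 13 of 17 and 15 of 17, respectively. The E2F core GCGGGAA, on either strand, was in 5 of 45 windows (11.1%) and in 9.34% of all. Of 76 NF-Y matches 54 lay within the last 100 bases before the start, and of 44 CHR matches 23 lay there and 12 in the 50 bases after it. A match describes letters only; binding was not measured.

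**Figure D2:**
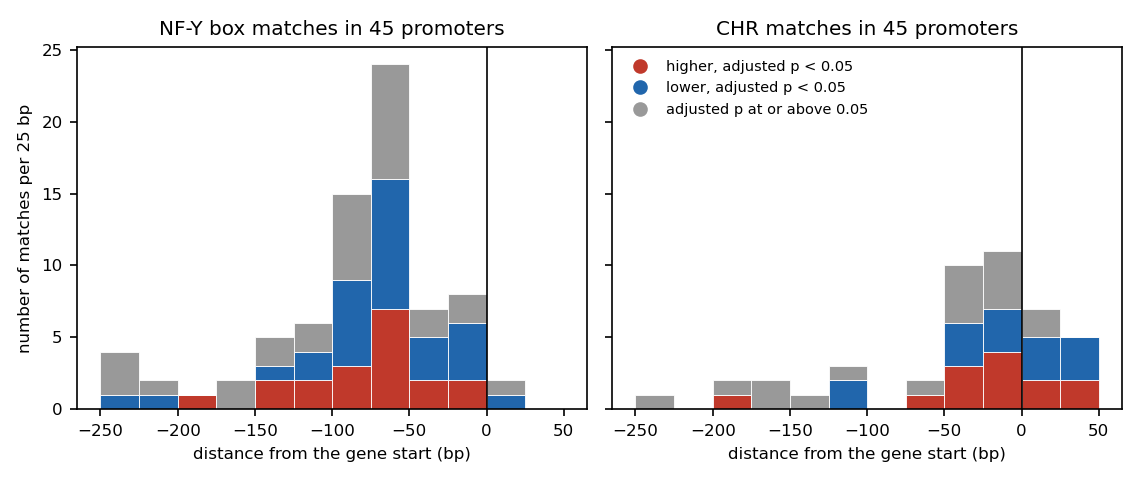
Number of matches per 25 bp (y axis) to the NF-Y box (left) and the CHR (right) by distance from the gene's start (x axis, bp), in 45 promoters of mitotic genes, coloured by whether the gene was higher, lower or not called. NF-Y matches are densest before the start and CHR matches lie nearer to it, in all 3 classes.

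The engine of mitotic entry showed the smallest differences. Of 10 kinases, cyclins and phosphatases, 2 were higher (20%) and 2 lower (20%) in the authors' deposited table. Of all tested genes 29.7% were higher and 27.9% lower. All 10 kinases, cyclins and phosphatases had an absolute log2 fold change under 0.5, as did 39.4% of tested genes. AURKA, the centrosomal Aurora kinase, was 1.41-fold higher (0.49 on the log2 scale, adjusted p = 7.73e-07), and the Polo-like kinase PLK1 was 1.17-fold higher (0.22, adjusted p = 0.0236). CDC25B, the phosphatase that starts CDK1 activation at the centrosome, was 1.41-fold lower (-0.50, adjusted p = 3.57e-07). Cyclin A2, CCNA2, was 1.18-fold lower (-0.24, adjusted p = 0.0119).

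The core pair of mitosis, CDK1 and cyclin B1, was not called. CDK1 was listed at 0.21 (adjusted p = 0.0855 in the authors' deposited table), CCNB1 at -0.10 (0.360) and CCNB2 at -0.21 (0.0648). CDC25C (-0.11), the checkpoint kinase TTK (-0.10) and AURKB (0.16), the kinase of the passenger complex, were also not called, with adjusted p-values from 0.264 to 0.519.

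Of the remaining regulators, FOXM1, a transcription factor that drives late cell cycle genes (chromosome 12, 2857681 to 2877155), was 1.69-fold lower (-0.76 on the log2 scale, adjusted p = 2.65e-19, authors' deposited table). MKI67, the chromosome coat protein read as the Ki-67 proliferation marker, was 1.88-fold lower, a larger fold with a much larger adjusted p (0.00167). TOP2A, the topoisomerase that untangles sister chromatids, was listed at 0.03 (adjusted p = 0.777).

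Of 10 genes of the spindle checkpoint and mitotic exit, 3 were higher (30%) and 4 lower (40%), beside 29.7% and 27.9% of tested genes. The kinases BUB1 (-0.29, adjusted p = 0.00283) and BUB1B, which encodes BubR1 (-0.43, adjusted p = 9.65e-07), were lower in the authors' deposited table, as was MAD2L1 (-0.33, adjusted p = 0.00840), the inhibitor of CDC20. BUB3, the platform for both kinases, was not called (-0.11, adjusted p = 0.349).

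CDC20 (0.65) and UBE2C, the ubiquitin-conjugating enzyme of the anaphase-promoting complex (1.61-fold higher, adjusted p = 4.43e-07), were higher in the authors' deposited table. PTTG1, or securin, the inhibitor of separase, was 1.33-fold higher (adjusted p = 0.00563), while separase itself, ESPL1, was 2.13-fold lower. PTTG1 has near-identical copies elsewhere in the genome between which reads can be split, so its value is uncertain. The shugoshins SGO1 (0.07) and SGO2 (0.13), which protect centromeric cohesin, were not called.

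**Figure D3:**
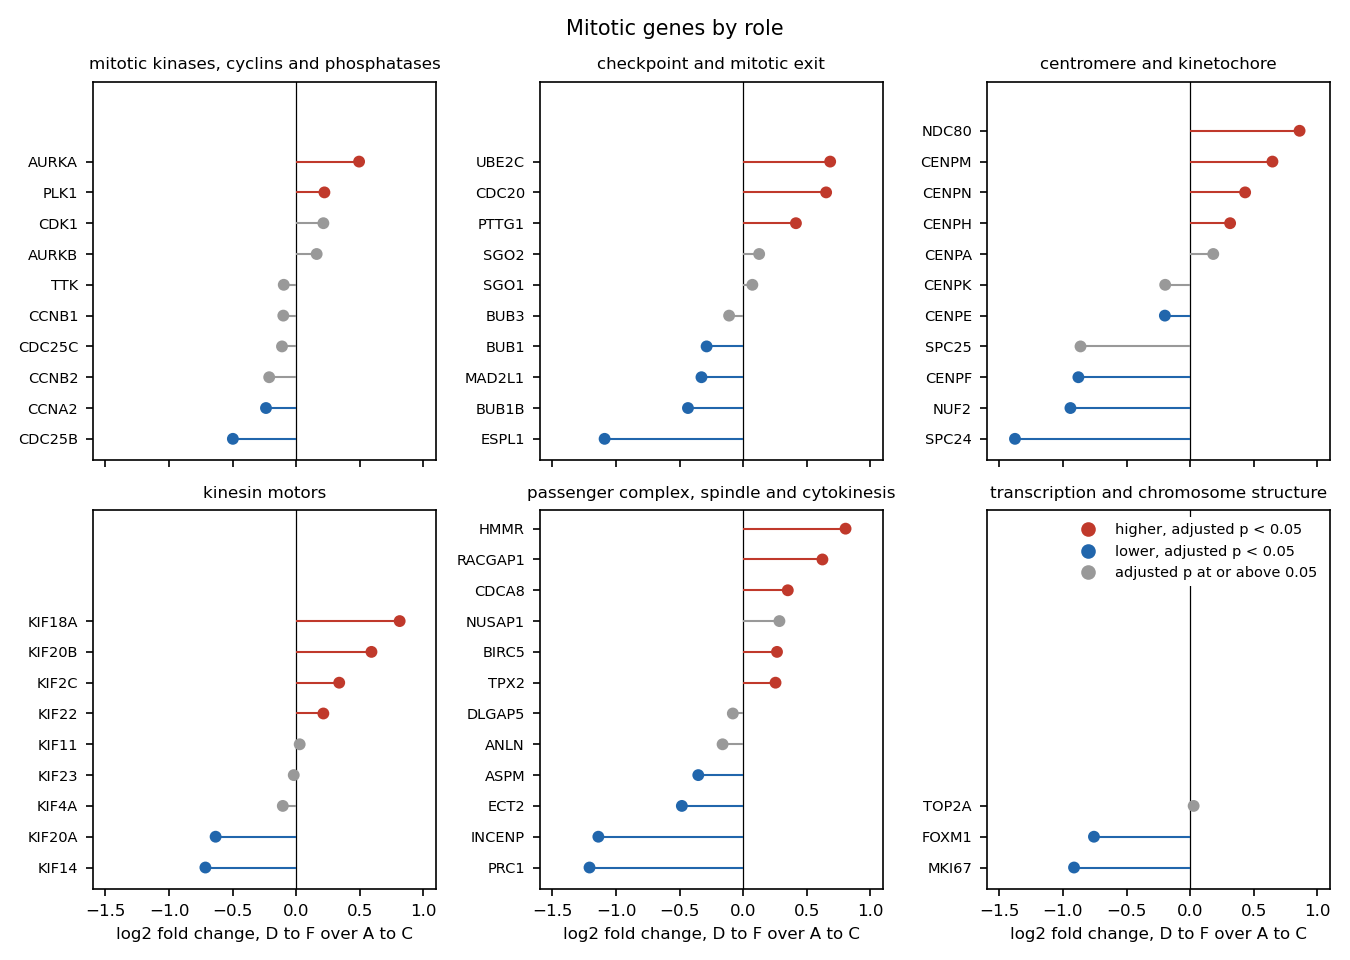
Log2 fold change of libraries D to F over A to C (x axis) for each of the 55 mitotic genes, in 6 panels by role and sorted within each, with red for higher, blue for lower and grey for an adjusted p at or above 0.05. Every panel except transcription and chromosome structure, with 3 genes, holds called genes on both sides, and the span runs from SPC24 (-1.38) to NDC80 (0.86).

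Of the 6 role groups, centromere and kinetochore genes had the widest range of log2 fold changes. Of these 11 genes, 4 were higher (36.4%) and 4 lower (36.4%), beside 29.7% and 27.9% of all tested genes. In the authors' deposited table NDC80, the microtubule-binding arm of the outer kinetochore (chromosome 18, 2571511 to 2616635), was 1.82-fold higher (adjusted p = 1.56e-11). Its partner in the same arm, NUF2, was 1.92-fold lower (adjusted p = 2.97e-14). SPC24, which anchors the arm to the inner kinetochore, was 2.60-fold lower. SPC25, which pairs with SPC24, was listed 1.82-fold lower but was not called (adjusted p = 0.427).

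CENPF, a large protein that coats kinetochores in G2 and mitosis, was 1.84-fold lower (adjusted p = 5.52e-16 in the authors' deposited table), and the kinetochore motor CENPE was 1.15-fold lower (adjusted p = 0.0405). The inner kinetochore subunits CENPM (1.57-fold, adjusted p = 5.47e-06), CENPN (1.35-fold, adjusted p = 0.00753) and CENPH (1.24-fold, adjusted p = 0.0458) were higher. CENPK (-0.20) and the centromeric histone CENPA (0.18) were not called.

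Of 9 kinesins 4 were higher (44.4%) and 2 lower (22.2%), beside 29.7% and 27.9% of all tested genes. KIF18A, which dampens chromosome movement at the metaphase plate, was 1.76-fold higher (adjusted p = 8.66e-11 in the authors' deposited table). KIF2C, the microtubule depolymerase MCAK, was 1.26-fold higher (adjusted p = 1.47e-04), and KIF22, a chromosome arm motor, 1.16-fold higher (adjusted p = 0.0242). KIF14, a cytokinesis motor, was 1.64-fold lower (adjusted p = 7.83e-15).

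The kinesin-6 motors, which work at the central spindle, were divided: KIF20B was 1.51-fold higher (adjusted p = 2.74e-10), KIF20A 1.55-fold lower (adjusted p = 4.24e-10) and KIF23 was listed at -0.02 (adjusted p = 0.863). KIF11, the motor that separates the spindle poles (0.03, adjusted p = 0.806), and KIF4A (-0.11, adjusted p = 0.323), which has a near-identical copy in KIF4B, were not called in the authors' deposited table.

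In the passenger complex, which corrects faulty attachments and moves to the midzone at anaphase, INCENP was lower while BIRC5, or survivin (1.20-fold, adjusted p = 0.0120), and CDCA8, or borealin (1.27-fold, adjusted p = 3.36e-04), were higher in the authors' deposited table. TPX2, which activates AURKA on the spindle, was 1.19-fold higher (adjusted p = 0.00242). ASPM, a spindle pole protein, was 1.28-fold lower (adjusted p = 2.42e-04), and DLGAP5 (-0.08) was not called.

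For cytokinesis, ECT2, the exchange factor that activates RhoA at the cleavage furrow, was 1.40-fold lower (adjusted p = 6.56e-07 in the authors' deposited table), and its central spindle partner RACGAP1 was 1.54-fold higher. ANLN (-0.16), a furrow scaffold, was not called. PRC1, the microtubule bundler of the midzone, was listed 2.31-fold lower with an adjusted p of 0.0376. NUSAP1, a spindle bundling protein, was listed at 0.28 (adjusted p = 0.318).

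**Figure D4:**
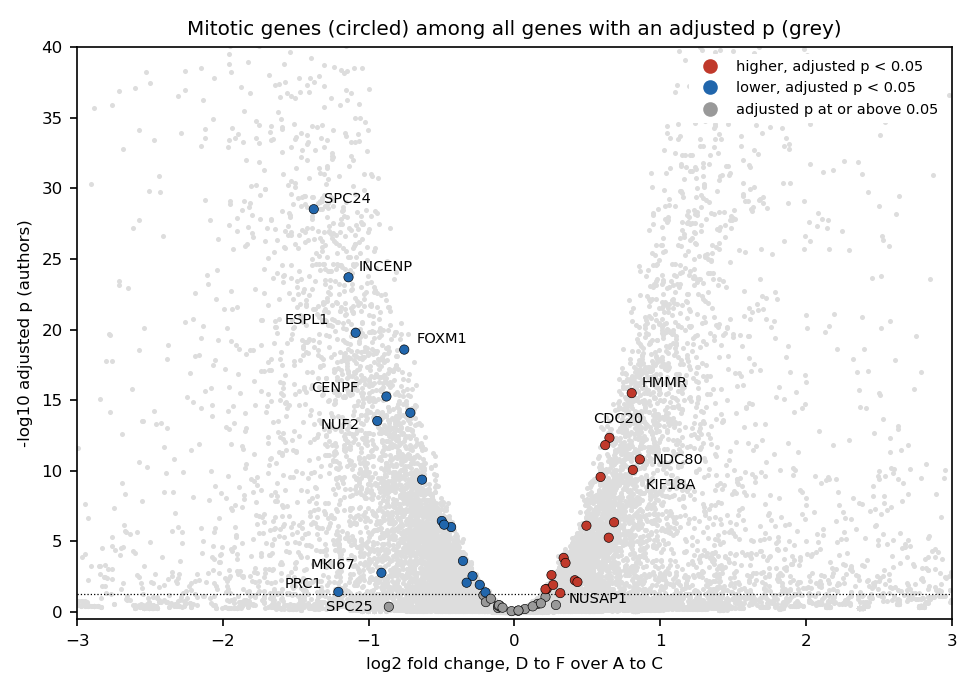
Log2 fold change (x axis, drawn from -3 to 3) against -log10 of the authors' adjusted p (y axis, drawn to 40) for the 55 mitotic genes (circled, coloured by call) and the other tested genes (grey). PRC1, SPC25, MKI67 and NUSAP1 lie low for their fold, while SPC24, INCENP, ESPL1 and FOXM1 have the smallest adjusted p-values of the mitotic genes. Tested genes beyond the drawn axes are not shown.

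PRC1, SPC25, MKI67 and NUSAP1 had large adjusted p-values for their fold, and they were picked out after their values were seen. In GENCODE 29, PRC1 shares 58.4% of its exonic bases with exons of other genes, on the same strand and opposite to it, and NUSAP1 shares 62.2% with another gene on its own strand. SPC25 and MKI67 share 0%. The sources used here do not say how the authors counted reads in shared exons, or whether by strand. Of the 55 genes 8 share over 10% of their exonic bases, among them FOXM1 (15.9%), CENPN (22.8%), SGO1 (17.7%), KIF22 (13.0%), PLK1 (12.5%) and BUB1B (10.2%). Without these 8 genes, 15 mitotic genes were higher and 15 lower.

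The subunits were also set side by side by complex, a grouping made after the values were seen. Of 14 complexes or partner pairs, 6 held subunits called higher and subunits called lower. Of all tested genes 29.7% were higher and 27.9% lower, so the count is a description only, and differences between subunits were not tested. The widest span was that of the NDC80 complex, from SPC24 at -1.38 to NDC80 at 0.86 in the authors' deposited table. The passenger complex spanned -1.14 (INCENP) to 0.35 (CDCA8), and the mitotic checkpoint complex -0.43 (BUB1B) to 0.65 (CDC20). In the inner kinetochore, CENPI (-0.83) was lower beside its partners CENPH (0.31) and CENPM (0.65). CENPO (-0.41) and CENPP (-0.37) were lower beside CENPQ (0.38), CENPU (0.89) and ITGB3BP (0.40).

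The MIS12 complex, to which the NDC80 complex binds, had 3 of 4 subunits higher and none lower, up to MIS12 at 1.65. Over all tested genes 29.7% were higher and 27.9% lower, and these groups too were picked after the values were seen and not tested. KNL1 (-0.54) and its kinetochore partner ZWINT (-0.57) were both lower in the authors' deposited table. CENPL (0.72) and CENPN (0.43) were both higher, and CENPW (-1.12) and CENPX (-1.29) were both lower.

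**Figure D5:**
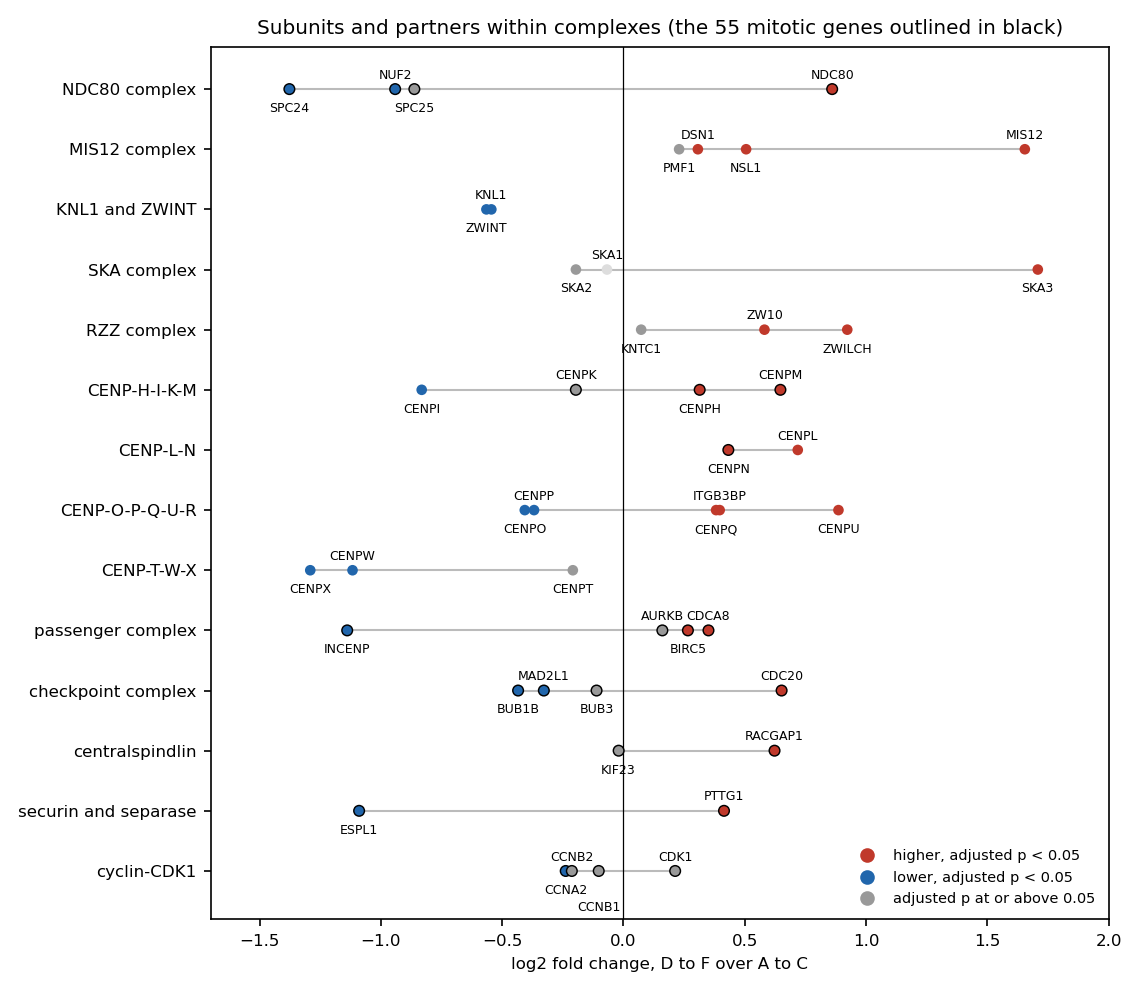
Log2 fold change of libraries D to F over A to C (x axis) for the subunits or partners of 14 complexes (rows), with the 55 mitotic genes outlined in black, red for higher, blue for lower, grey for not called and pale grey for SKA1, which has no adjusted p. The grey bar spans each complex; the NDC80 complex has the longest bar, and KNL1 with ZWINT the shortest.

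Beyond these 55 genes, 6 lists of other cell division genes gave 63 higher and 36 lower of 140 with a value, with a median log2 fold change of 0.17. These are 45% higher and 25.7% lower, beside 29.7% and 27.9% of all tested genes, and no list was tested against them. In the authors' deposited table the anaphase-promoting complex and its regulators were 9 higher (45%) and 4 lower (20%) of 20. The inhibitor FBXO5, or EMI1 (0.95), MAD2L1BP, which helps to extract MAD2 from the checkpoint complex (1.08), and the chain-extending enzyme UBE2S (0.63) were higher, and the catalytic subunit ANAPC2 (-0.85), the activator FZR1 (-0.73) and ANAPC16 (-0.59) were lower. Of 28 further centromere and kinetochore genes 13 were higher (46.4%) and 7 lower (25%), led by SKA3 (1.71, adjusted p = 1.08e-75), MIS12 and ZWILCH (0.92), and by CENPX, CENPW and KNL1.

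Cohesin and condensin genes were 10 higher (47.6%) and 6 lower (28.6%) of 21 in the authors' deposited table. For this list and the next, the shares over all tested genes were 29.7% higher and 27.9% lower. The cohesin release factor WAPL (1.04), its antagonist CDCA5, or sororin (0.71), and the condensin II subunit NCAPH2 (0.80) were higher, and the cohesin ring subunits SMC1A (-0.90) and RAD21 (-0.61), the target of separase, were lower together with NCAPD3 (-0.45). Centrosome and spindle assembly genes, the next list, were 12 higher (37.5%) and 10 lower (31.3%) of 32. HAUS2 (1.34), CEP55 (0.78) and CKAP2 (0.65) were higher, and NUMA1 (-1.22), SPAG5 (-0.86) and NEK6 (-0.97) were lower.

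Of 16 genes listed for the control of mitotic entry, 10 were higher (62.5%) and 3 lower (18.8%), beside 29.7% and 27.9% of all tested genes. Their median log2 fold change was 0.45. The 62.5% higher was the largest such share of the 6 lists, which were chosen with earlier results of these data known. Inhibitors and activators were both among the 16 genes. The inhibitory kinases WEE1 (0.59, adjusted p = 2.74e-08 in the authors' deposited table) and PKMYT1 (0.90, adjusted p = 1.74e-16), which hold CDK1 off, were higher. The CDK inhibitors CDKN1A (2.50) and CDKN1B (0.76) were higher as well, and so was MASTL (0.88), the kinase that shields CDK1 substrates from dephosphorylation. The remaining higher genes were CCNA1 (1.11), CDC14A (0.83), BORA (0.51), CKS2 (0.40) and CKS1B (0.26). CDK2 (-0.81), CCNF (-0.42) and ARPP19 (-0.29), a substrate of MASTL, were lower.

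Among 23 transcription factors and associated proteins listed for these promoters, 9 were higher (39.1%) and 6 lower (26.1%). Of all tested genes 29.7% were higher and 27.9% lower, and the list was not tested against them. RB1, the retinoblastoma repressor, was 6.05-fold higher (adjusted p = 2.92e-63 in the authors' deposited table), and its relative RBL2, or p130, was 2.95-fold lower (adjusted p = 9.03e-20). The repressive factors E2F7 (0.81) and E2F8 (0.85) were higher, and the MuvB subunit RBBP4 (-1.54) and the E2F partner TFDP2 (-1.12) were lower. MYBL2, or B-MYB (0.02, adjusted p = 0.872), and E2F1 (0.10, adjusted p = 0.443) were not called.

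Gene starts add a further description. A protein-coding gene began within 1000 bases upstream on the opposite strand, head to head, for 9 of the 55 mitotic genes. Neighbours whose starts lie inside the gene, so that the 5′ ends overlap, were not counted here or over the table. In 5 of these pairs both genes were called. Over the table's 669 such head-to-head pairs, both genes were called in 236 (35.3%), and in 141 of those (59.7%) on the same side, so the few mitotic pairs are given as a description. In 4 pairs both lay on the same side: AURKA with CSTF1 (0.23), PTTG1 with SLU7 (0.76) and CDCA8 with C1orf109 (0.87) were higher, and CDC25B with CENPB (-0.27), a centromere protein gene, was lower. NDC80 was the exception, higher while METTL4, whose start lies 2 bases away, was lower (-0.48 in the authors' deposited table).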

How the data were processed

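Per the labels' protocols, TRIzol RNA was made into libraries with a NEBNext Ultra kit and sequenced as paired ends. Per the submitters' processing notes, Trimmomatic, STAR, HTSeq and DESeq2 and the build hg38 were used. The sources used here give no versions, parameters or annotation, and do not say whether strand was used or fold changes were shrunken. Per gene, the authors deposited p-values, unadjusted and adjusted, beside a log2 fold change. They stand for libraries D to F over A to C by the order of the table's name. The 36 columns of values per library were not used, since no label ties them to samples, so depth is unknown here and the values have no SD or n.

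An adjusted p of exactly 1 (977 genes) was treated as none; no mitotic gene had it. Calls used 0.05. No list was tested: lists are given by counts and medians. The genes and lists were chosen with earlier results of these data known; complexes were grouped after the values were seen. Named were all mitotic genes, up to 3 genes per list and direction with the smallest adjusted p, and 10 genes always, of which 1 is not reported here; others were named after their values were seen. Genes were matched by symbol to GENCODE 29, all 56 to 1 gene each, and promoters to RefSeq (45 of the 55), taking the first entry of a gene. Promoters were printed for the 3 smallest adjusted p-values in each direction, where listed. The scripts were tested on simulated data and ran in Python 3.11.15 with pandas 2.3.3, numpy 2.4.6 and scipy 1.17.1. Alternatives were a threshold of 0.01, other adjustments and centring on the median of all genes.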

Additional observations from a re-analysis of the deposited data

How the results depend on the processing

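The counts of mitotic genes higher and lower stayed within 1.5 times of 18 and 18 at an adjusted p under 0.01 (14 and 15). The same held with the Benjamini-Hochberg adjustment over all 16953 genes (18 and 18). It also held without the 8 genes that share exonic bases (15 and 15), an alternative chosen after seeing the data. Centring, which subtracts the median of all genes, 0.06, from each fold change, also gave 18 and 18. These counts could not have changed, since centring kept the adjusted p-values. Among called mitotic genes the smallest absolute log2 fold change, that of CENPE (-0.20), exceeds 0.06. Over all genes, the threshold of 0.01 left 4074 higher and 3870 lower, and the Benjamini-Hochberg adjustment 4709 and 4424. With Bonferroni over all genes the mitotic counts were 9 and 11. The same step took all genes from 4742 to 2606 higher and from 4453 to 2520 lower. The number of mitotic genes at least 2-fold lower ranged from 3 to 5, and over all genes from 1424 with Bonferroni to 1953 when centred. PRC1 was among the 7 calls lost at 0.01. The median log2 fold change of -0.08 was -0.15 when centred and -0.10 without the 8 genes. At 0.01 the kinases, cyclins and phosphatases had 1 higher and 1 lower in place of 2 and 2. Centring turned the sign of KIF11 (-0.037) and TOP2A (-0.036), both not called. Leaving out each replicate was not run, since no label ties the values per library to samples. No paired analysis was possible because the columns carry no replicate numbers.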
